A study of Drosophila melanogaster with 4 samples.

Results

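The Myb signal was examined across the 87A heat shock locus of Drosophila melanogaster, a 40 kb window of chromosome arm 3R between positions 7760000 and 7800000 of the dm3 assembly. This window holds the genes aur, CG3281, Hsp70Aa and Hsp70Ab. The members were the genome probes lying wholly inside the window, 549 of 1870562 genome probes on 2 array designs, and all 549 were measured in both replicates. Chromatin came from wing imaginal discs of male larvae in the third instar, of the yw67 strain, a yellow body and white eye strain that served as the wild-type background of the study. It was fixed with 1.8% formaldehyde for 15 min, sheared to about 400 bp and immunoprecipitated with an antibody to Myb. Each of the 2 biological replicates was hybridised with its own input DNA as the other dye (ChIP-chip), and the window lies on array design 2, so each value below rests on 1 array per replicate. All samples were of this 1 condition, with no Myb mutant and no mock immunoprecipitate, so each comparison is of immunoprecipitate with input, or of 1 site with another.

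Hsp70Aa and Hsp70Ab encode near-identical copies of the major heat-inducible chaperone and are divergently transcribed, silent or nearly so without stress but with RNA polymerase II paused just past their start sites. A pair of insulator elements, the specialised chromatin structures scs and scs′, flank the pair, and were among the earliest enhancer-blocking and barrier elements described in flies. The scs′ element lies at the divergent promoters of aur (aurora, the Aurora A mitotic kinase) and CG3281 and is bound by the insulator protein BEAF-32, whereas scs lies on the other side of the pair, near the promoter of CG31211 and next to Cad87A, a cadherin gene. Myb is a DNA-binding subunit of the dREAM/Myb-MuvB complex, which controls genes of the cell division cycle such as those of mitosis.

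The reference gene list places the genes in the order Cad87A, CG34307, CG14731, CG31211, Hsp70Aa, Hsp70Ab, CG3281, aur, CG12213, GC1, Tango9 and GC2. Of these, dm3 transcript coordinates were held for aur (7789014 to 7790375) and GC1 (7794940 to 7796897, a mitochondrial glutamate carrier gene). The low-coordinate end of the aur transcript, which faces CG3281, was taken as the aur start and as the position of scs′. The other sites were given by 3 intervals that the study listed as Myb-bound and assigned to these genes, 1 at CG31211 and Cad87A (7773817 to 7775574, the scs side), 1 at aur and CG3281 (7787842 to 7789615, the scs′ side) and 1 at CG12213 and GC1 (7791808 to 7793906). These intervals were called by the study on these same arrays, so their enrichment is a description and no independent evidence. Hsp70Aa and Hsp70Ab were not placed in dm3 here, and their values are those of the 12267 bp between the scs and scs′ intervals, which by gene order holds both genes.

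Values are log2 ratios of the immunoprecipitate over the input intensity, with each array centred on its median, so that 0 is the middle of an array and 1 is a doubling relative to it. Across the window the signal was above the middle of the array in both replicates. The median probe was at 0.59 in replicate 1 and 0.66 in replicate 2, against 0.06 and 0.08 over the 369816 probes of arm 3R measured in both replicates. Both replicates were above 0 at 428 probes of the window (78.0%), as against 40.8% of the probes of the arm and 36.2% of all probes. Only 34 probes of the window (6.19%) were below 0 in both replicates, as against 29.8% of the probes of the arm and 36.2% of all probes.

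No spot of the window was saturated or marked as an outlier. The input intensity of a probe was not well above background for 15 spots in replicate 1 and 22 in replicate 2, and the immunoprecipitate intensity for 7 and 8 spots. Probes were 50 bp long with a median of 66 bp from one start to the next, so neighbouring probes read the same sheared fragments. The replicates correlated with a Pearson's r of 0.51 across the 549 probes, which is a description across probes that share fragments and is below the 0.60 found across arm 3R.

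**Figure D1:**
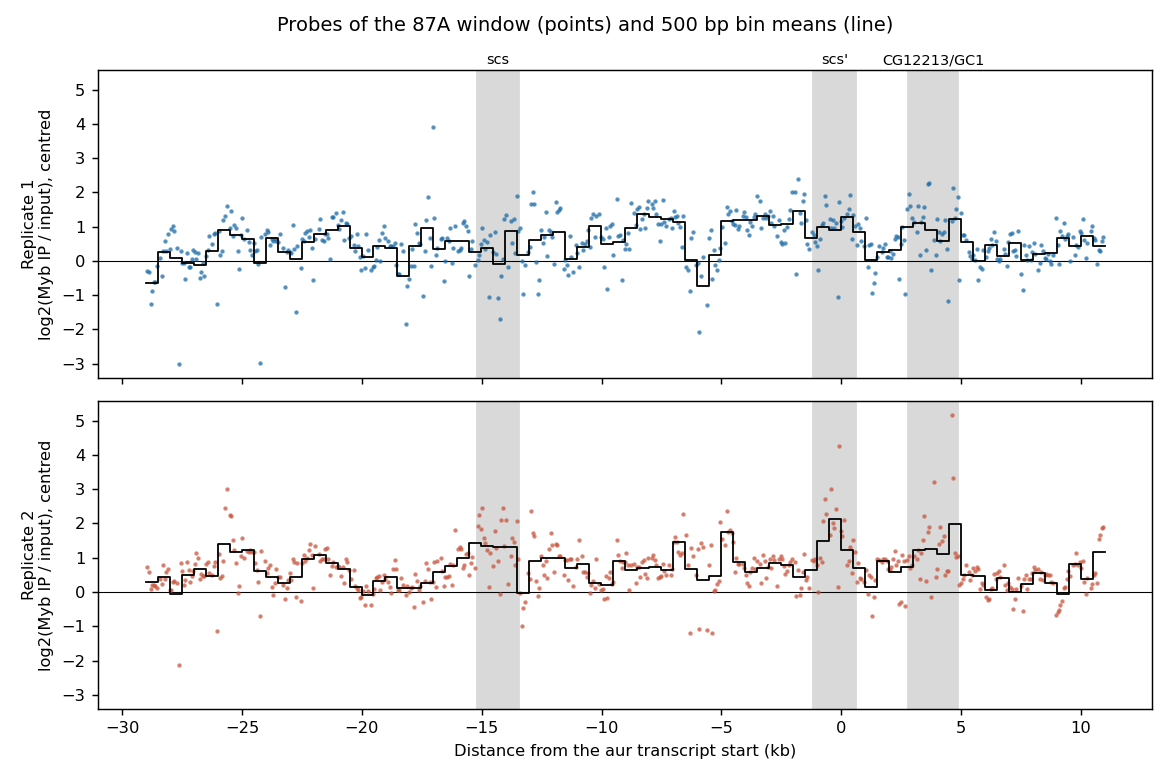
Log2 ratio of Myb immunoprecipitate over input (vertical axis, centred on the array median) of each probe (points) and the mean of each 500 bp bin (black line) against distance from the aur transcript start in kb, with replicate 1 above and replicate 2 below. Grey bands mark the 3 intervals that the study listed, and most bin means lie above 0 in both replicates.

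Each probe was tested against a log2 ratio of 0 with limma across all probes of both designs, with Benjamini-Hochberg adjustment. In the window 209 of 549 probes (38.1%) were enriched at an adjusted p below 0.05, where 9.77% of all 1865871 probes tested were enriched. A further 8 probes were depleted (1.46%), where 3.86% of all probes were. The remaining 332 probes passed in neither direction.

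Because fragments span several probes, the same test was run on means of 500 bp bins, of which the window has 80. In 68 bins both replicates were above 0, in 12 they had opposite signs, and in none were both below 0. Of the 80 bins, 48 (60.0%) were enriched by limma with Benjamini-Hochberg adjustment over 237041 bins, where 19.2% of all bins were enriched. None was depleted, where 7.72% of all bins were. The lowest mean among the enriched bins was 0.52 and the highest among the others was 0.47. The standard errors of the bins, moderated by limma, lay between 0.18 and 0.22. Such an error draws on the variance of all bins and is not the spread of a bin's own 2 replicates.

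The enriched bins formed 12 runs. The longest was of 12 bins and 6 kb, between positions 7784000 and 7789999, and reached from inside the Hsp70 interval across scs′ into the aur transcript. Runs of 6 bins and 3 kb covered scs and its Cad87A side (7772500 to 7775499), the middle of the Hsp70 interval (7779500 to 7782499) and the CG12213 and GC1 interval (7791500 to 7794499). The other runs were of 1 to 4 bins. In each of the 12 runs the mean of each replicate was above 0, from 0.27 to 1.10 in replicate 1 and from 0.27 to 1.25 in replicate 2. The bins of a run were chosen by the mean of these same replicates, so this was largely built in. In the run at scs, the lowest bin of replicate 1 was at −0.08. With probes not well above background left out, 50 of 79 bins were enriched. The bins at 7771500 and, inside the scs run, 7774500 were then no longer enriched (limma, adjusted p = 0.13 and 0.060).

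**Figure D2:**
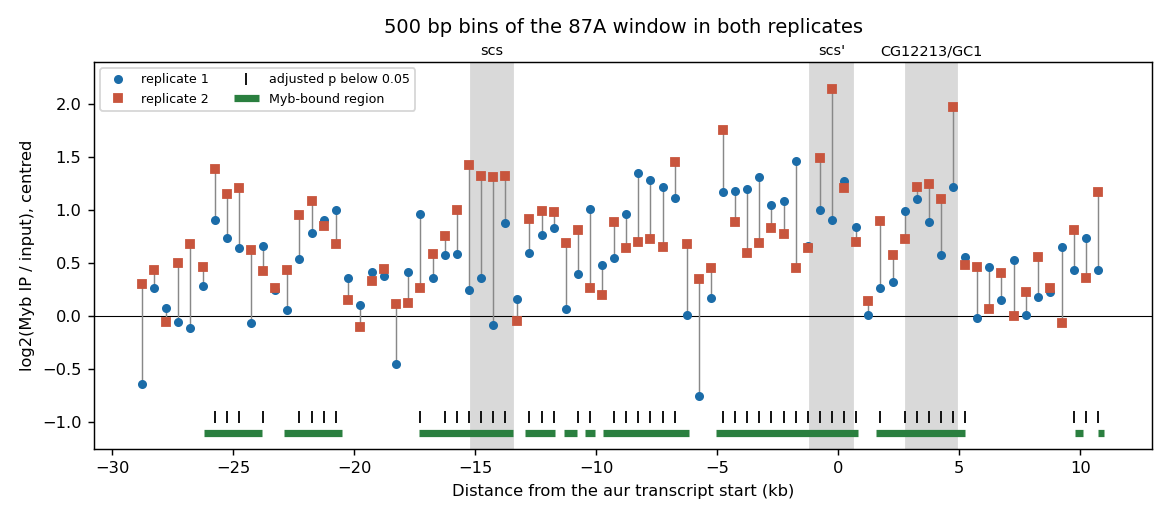
Mean log2 ratio of the 80 bins of 500 bp (vertical axis) against distance from the aur transcript start in kb, with replicate 1 as circles, replicate 2 as squares and a line joining them. Black ticks mark the 48 enriched bins, green bars the 11 Myb-bound regions and grey bands the 3 listed intervals. The longest run of enriched bins reaches from the Hsp70 interval across scs′.

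A version of the neighbourhood rule of the study's methods was applied to the mean of both replicates. Its p-values came from the mode of the ratios and the spread below it, a choice made here. Across the 6 chromosome arms this version gave 17564 regions. The study's own list of bound regions is shorter, so the regions below are not the study's calls. In this version, neighbouring significant probes were joined into 11 Myb-bound regions that overlap the window. They covered 24.5 kb or 61.3% of it, whereas the regions called the same way covered 17.9% of arm 3R. The longest, at chr3R:7783948-7789805, spanned 5858 bp with 81 probes and was the 51st longest of 4075 regions on the arm. Its mean was 1.10 in replicate 1 and 1.04 in replicate 2 (1.07 ± 0.04, SD, n = 2), and it holds scs′, the start and adjoining part of the aur transcript, and the scs′-side part of the Hsp70 interval. The next, at chr3R:7771681-7775574, was 3894 bp long and holds the scs interval, with means of 0.52 and 1.04 in replicates 1 and 2. Regions of 3671 bp at chr3R:7790556-7794226, over the CG12213 and GC1 interval, and of 3544 bp at chr3R:7779295-7782838, in the Hsp70 interval, followed. Their replicate means were 0.77 and 1.03 for the first of these and 0.97 and 0.81 for the second.

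The other 7 regions were shorter. Regions at chr3R:7762811-7765206 and chr3R:7766109-7768492, on the Cad87A side, had means of 0.53 and 0.96 and of 0.69 and 0.82 in replicates 1 and 2. In the Hsp70 interval, the region at chr3R:7776061-7777318 had 0.84 and 1.03. The region at chr3R:7777665-7778224 had 0.21 and 0.91 and was not called in replicate 1 alone. The region at chr3R:7778567-7778942 had 1.19 and 0.37 and was not called in replicate 2 alone. At the far end of the window, chr3R:7798804-7799111 had 0.75 and 0.88, and chr3R:7799730-7800977, which runs past the window, had 0.54 and 1.23. For the 7 regions, replicate 2 was higher than replicate 1 in all but the 1 at chr3R:7778567-7778942. Called in 1 replicate alone, the rule gave 13 regions covering 43.4% of the window in replicate 1 and 13 regions covering 74.5% in replicate 2.

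Among the sites, the mean signal of the 2 replicates was highest at the aur start, where scs′ lies. Within 500 bp of it (13 probes) the mean was 1.05 in replicate 1 and 1.75 in replicate 2 (1.40 ± 0.49, SD, n = 2). Both replicates were above 0 at 12 of these 13 probes, and 11 were enriched in the probe test, where 9.77% of all probes were. The rank of the aur start rests on replicate 2. In replicate 1 the CG12213 and GC1 interval was as high, at 1.05. Also in replicate 1, 2 stretches of the Hsp70 interval, described below, were higher, at 1.09 and 1.21. Over the whole interval at aur and CG3281 (25 probes) the means were 1.00 and 1.55, or 1.28 ± 0.39 (SD, n = 2), and 20 of the 25 probes were enriched, none depleted. Replicate 2 was the higher at both, and the replicates differed by 0.70 within 500 bp of the start and by 0.55 over the interval.

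The 500 bp bin just before the aur start, at 7788500 to 7788999, had 0.91 in replicate 1 and 2.14 in replicate 2 (SD 0.87). Its mean of 1.53 ± 0.22 (moderated SE) was the second highest of the window (limma, adjusted p = 9.1e-06). This was the highest bin of replicate 2 in the window, whereas the highest bin of replicate 1 lay at 7787000 to 7787499, with 1.46 in replicate 1 and 0.45 in replicate 2. The bin over the first part of the transcript, at 7789000 to 7789499, was alike in both, with 1.28 and 1.21. Averaged over 5 consecutive probes, the summit inside the interval lay 580 bp before the aur start in replicate 2 (2.35) and 210 bp after it in replicate 1 (1.41). Over those 5 probes of replicate 1, replicate 2 had 1.35, and over those of replicate 2, replicate 1 had 1.36. The summit was thus placed 790 bp apart in the replicates, more than the length of a sheared fragment, while both were high at both positions.

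**Figure D3:**
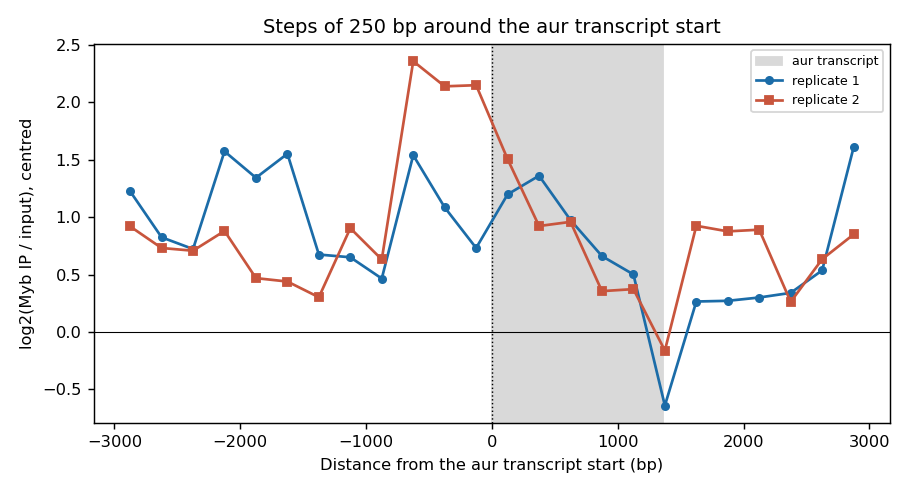
Mean log2 ratio in steps of 250 bp (vertical axis) against distance from the aur transcript start in bp, with replicate 1 as circles and replicate 2 as squares, and the transcript in grey. Replicate 2 is above 2 in the 3 steps between 750 bp before the start and the start, and both replicates are below 0 in the step from 1250 to 1500 bp after it.

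Along the aur transcript the signal was lowest at the end away from the start. In the first step of 250 bp the means were 1.20 and 1.50 in replicates 1 and 2. They were 0.97 and 0.96 between 500 and 750 bp, 0.50 and 0.37 between 1000 and 1250 bp, and −0.64 and −0.16 between 1250 and 1500 bp, where the transcript ends. The mean over the whole transcript was 0.81 and 0.72 (0.77 ± 0.06, SD, n = 2). The window within 500 bp of the start exceeded the transcript, which it partly overlaps, by 0.24 in replicate 1 and by 1.03 in replicate 2. One probe near the transcript's end, at 7790284, was depleted, with −0.93 and −0.69 (limma, adjusted p = 0.039).

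On the CG3281 side of the start, the signal was as high as over the start itself before it dropped. Between 750 and 500 bp before the aur start the means were 1.54 and 2.36, and between 500 and 250 bp before it 1.08 and 2.14. From 1000 to 750 bp before it they were 0.47 and 0.63. Further along, between 2250 and 1500 bp before the start, replicate 1 was between 1.34 and 1.57 and replicate 2 between 0.44 and 0.88, so that the replicates were in the opposite order to that at scs′. How much of this lies in CG3281, which encodes a predicted zinc finger protein, was not placed here.

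The scs side gave a less even picture. Over the interval at CG31211 and Cad87A (25 probes) the mean was 0.37 in replicate 1 and 1.39 in replicate 2 (0.88 ± 0.72, SD, n = 2). Its 3 bins by bin centre were all enriched by the bin test, but in replicate 1 they ran from −0.08 to 0.88 and in replicate 2 from 1.32 to 1.33. With probes not well above background left out, the bin at 7774500 had −0.22 and 1.25 and was not enriched (limma, adjusted p = 0.060). Those at 7774000 and 7775000 stayed enriched. At 13 of the 25 probes (52.0%) the probe test found enrichment, against 9.77% of all probes, and at none depletion. The value rests on replicate 2, since replicate 1 alone gives 0.37, the same as that replicate's mean over the Cad87A side of the window. The interval at aur and CG3281 exceeded that at scs by 0.63 in replicate 1 and by 0.16 in replicate 2 (0.40 ± 0.33, SD, n = 2). With 2 replicates, no exact test of a single value can reach p = 0.05.

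Input intensities at both insulators were below the arm's median. The median input intensity of the probes was 207 and 93.3 over the aur and CG3281 interval and 243 and 104 over the scs interval, in replicates 1 and 2, against 883 and 586 over arm 3R. Immunoprecipitate medians were 470 and 315 at aur and CG3281 and 359 and 310 at scs, against 1007 and 639 over the arm. Both channels were thus dimmer than the arm's median at both insulators, and the input more so. Across the 549 probes, ratio and input intensity had a Spearman correlation of −0.09 in replicate 1 and −0.31 in replicate 2. The input is itself part of the ratio, so this is a description. Whether the low input has a part in the ratios was not tested.

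**Figure D4:**
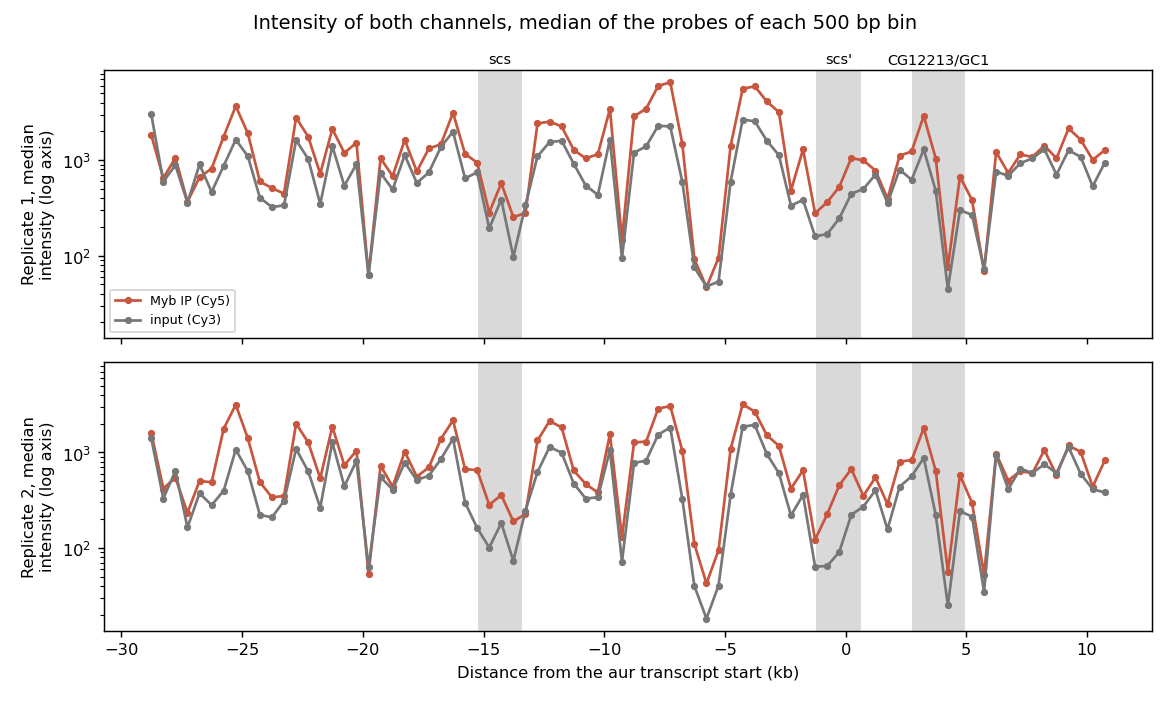
Median processed intensity of the probes in each 500 bp bin (vertical axis, log scale) for the Myb immunoprecipitate and the input against distance from the aur transcript start in kb, replicate 1 above and replicate 2 below. Both channels dip in a stretch about 6 kb before the aur start, between high levels on either side, and are low in the scs and scs′ bands.

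Between the insulators, over the interval that holds Hsp70Aa and Hsp70Ab, 87 of 166 probes (52.4%) were enriched, where 9.77% of all probes were. A further 4 were depleted (2.41%), where 3.86% of all probes were. Of the interval's 25 bins by bin centre, 19 were enriched (76.0%), where 19.2% of all bins were. The mean was 0.80 in replicate 1 and 0.72 in replicate 2 (0.76 ± 0.06, SD, n = 2), and both replicates were above 0 at 136 of the 166 probes. Enrichment was thus found across the interval and not at the insulators alone. The interval at aur and CG3281 exceeded it by 0.20 in replicate 1 and 0.83 in replicate 2. The scs interval was below it by 0.43 in replicate 1 and above it by 0.67 in replicate 2, so these sites could not be ranked. With normexp background correction, scs had 0.16 and 0.90 in replicates 1 and 2 (mean 0.53) and was below both the Hsp70 interval at 0.67 and the aur transcript at 0.66.

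The signal of this interval was not flat. A pair of high stretches with a low one between them was delimited on bin edges after the values had been seen. The stretch on the scs side, 3 kb from 7779500, had means of 1.09 and 0.85 in replicates 1 and 2, and the one on the scs′ side, 3.5 kb from 7784000, had 1.21 and 0.84. Replicate 1 exceeded replicate 2 in both, unlike at either insulator. All bins of both stretches were enriched by definition, since the stretches were cut from the longest runs of enriched bins that start in this interval. By mean and in replicate 2, though not in replicate 1, their highest bins were the 2 that border the low stretch, with 1.12 and 1.46 in replicates 1 and 2 at 7782000 to 7782499 (limma, adjusted p = 1.1e-05), and with 1.17 and 1.76 at 7784000 to 7784499 (limma, adjusted p = 3.2e-06).

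In the low stretch between them, 1.5 kb from 7782500, the mean was −0.12 in replicate 1 and 0.50 in replicate 2 (0.19 ± 0.44, SD, n = 2), and none of its 3 bins was enriched. Here 8 of 19 probes were not well above background in a channel on at least 1 array. Median input intensity was 54.7 and 39.1 in the 2 replicates, against 1169 and 698 in the stretch on the scs side and 1069 and 722 in that on the scs′ side. With the 8 dim probes left out, the 11 others had means of 0.16 and 0.95 in replicates 1 and 2. The bins at 7782500 (mean 0.54, limma, adjusted p = 0.034) and 7783500 (mean 0.54, limma, adjusted p = 0.027) were then enriched. The bin at 7783000 kept too few probes to be tested. The lack of enriched bins in this stretch thus depended on the dim probes. Without the dim probes, replicate 1 was still below the high stretches, at 1.07 and 1.21, whereas replicate 2 was above them, at 0.84 in each.

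Other Hsp70 copies, at the related 87C locus on the same arm, are near-identical in sequence to the pair. Probes inside the 87A copies may bind DNA of the 87C copies as well, and signals of the copies cannot be told apart here. The high stretches may hold such probes, and their median input intensity was 1.32 and 1.21 times the arm's median in replicate 1 (scs side and scs′ side) and 1.19 and 1.23 times in replicate 2. A part of copy number in the values was not tested.

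**Figure D5:**
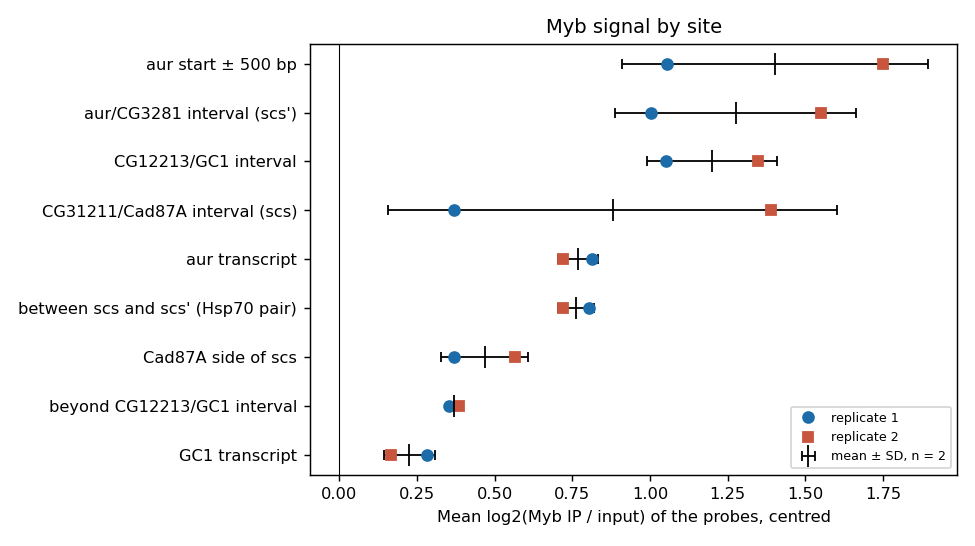
Mean log2 ratio of the probes of each site (horizontal axis) in replicate 1 (circle) and replicate 2 (square), with mean and SD over the replicates (n = 2) in black. The aur start and the intervals at aur and CG3281 and at CG12213 and GC1 lie above 1 in both replicates, and the GC1 transcript below 0.3 in both.

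Beyond aur, the interval at CG12213 and GC1 was as high as that at scs′. Its mean over 29 probes was 1.05 in replicate 1 and 1.35 in replicate 2 (1.20 ± 0.21, SD, n = 2). It had 23 enriched probes (79.3%), where 9.77% of all probes were enriched. It differed from the aur and CG3281 interval by −0.050 and 0.20 in the 2 replicates, taken as the aur and CG3281 interval minus this one, which is within the replicate error. Its bin at 7793500 to 7793999 had 1.22 and 1.98 in replicates 1 and 2 (SD 0.53). This bin had the highest mean of the window, 1.60 ± 0.20 (moderated SE, limma adjusted p = 1.5e-06). That rank rests on 1 probe, at 7793592, whose input was not well above background in replicate 2. Without dim probes the bin had 1.23 and 1.35 (mean 1.29), the fourth highest, after those at 7784000 (1.47), 7788500 (1.46) and 7775000 (1.33). The GC1 transcript itself was close to the middle of the arrays, with 0.28 and 0.17, and none of its 26 probes or 4 bins was enriched. The interval exceeded the transcript by 0.77 in replicate 1 and by 1.18 in replicate 2.

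At the edges of the window the signal was lower. On the Cad87A side, from the window's start to the scs interval, the means were 0.37 and 0.57 in replicates 1 and 2. Of its 28 bins, 12 were enriched (42.9%), against 19.2% of all bins. After the CG12213 and GC1 interval the means were 0.35 and 0.39. There 4 of 12 bins were enriched (33.3%), a share above that of all bins. Of the 84 probes there, 4 were enriched (4.76%), a share below the 9.77% of all probes. In the order of means, the aur start, the aur and CG3281 interval and the CG12213 and GC1 interval stood between 1.40 and 1.20, and were followed by scs at 0.88, the aur transcript at 0.77, the Hsp70 interval at 0.76, the Cad87A side at 0.47, the far end at 0.37 and the GC1 transcript, which holds 26 of the far end's 84 probes, at 0.23. The place of scs in this order turned with the background correction. Sites next to each other in this order differed by less than the SD of at least 1 of the pair, except that the Cad87A side lay below the Hsp70 interval. That SD is of a site's own replicates and leaves out that all sites were read on the same arrays. It therefore does not decide which neighbouring sites differ. The far end and the GC1 transcript within it were not compared.

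The highest probes of the window lay at the sites above. The probe at 7793592 had 1.17 in replicate 1 and 5.15 in replicate 2, and its input intensity in replicate 2, 14.2, was not well above background. The probe at 7788904, 110 bp before the aur start, had 1.71 and 4.26, with input intensities of 396 and 48.0. Probes at 7793659 and 7788308 had 2.12 and 3.32, and 1.89 and 2.72, in replicates 1 and 2. The fifth highest, at 7763346 on the Cad87A side, had 1.59 and 3.00. All 5 were enriched in the probe test, with limma adjusted p between 0.00089 and 0.0082, and in all 5 replicate 2 was the higher. The 5 were picked by the same mean that the test uses, so their passing it is no separate support.

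The lowest probes were of a different kind. The probe at 7761355 had −3.00 and −2.13 in replicates 1 and 2 with both channels well above background, and that at 7764735 had −3.00 and −0.69 at an input intensity of 48092 and 25938. The other 3 of the lowest 5, at 7783060, 7783388 and 7762948, had intensities of at most 12.1 in both channels and were not well above background in either channel of either replicate, so their ratios give no direction. Of the 8 depleted probes, 5 had a channel that was not well above background on at least 1 array, as had 12 of the 209 enriched probes.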

How the data were processed

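Myb ChIP-chip of yw67 wing discs was analysed, with 2 biological replicates on 2 array designs each. The authors deposited scanner output whose intensity values were, per the file headers, background-subtracted and dye-normalized by Agilent Feature Extraction version 11.5.1.1 (an earlier one, longer probes, and fewer discs than the 1000 per immunoprecipitation of the labels stand in the study's methods). Input was Cy3 and the immunoprecipitate Cy5. The deposited log10 ratio was used only as a check. A deposited log2 table, 1 column per replicate, with unstated centring (medians on design 2 of −1.39 and −0.81), served, once centred, as one of the alternatives. The log2 ratio of processed intensities was computed, without outlier spots, and centred on each array's median. limma version 3.58.1 tested probes, and 500 bp bins of at least 3 probes, against 0 (adjusted p 0.05 over all probes or bins). Arrays of 2 replicates limit the precision. The fit and the region rule were tested on simulated data. The simulated probes were independent with a common spread, so false calls among probes that share fragments were not covered. Regions needed 4 significant probes at most 300 bp apart, where the mean p of a probe and a neighbour within 1000 bp was below 0.05, with the mode and the spread below it (−0.09 and 0.43 on design 2) as null. The members and lists were chosen with earlier results of these data known. Named were the 4 genes, their neighbours, all regions and enriched bins, and the 5 highest and 5 lowest probes; a planned motif search was not run, as promoter sequences were not used here. Gene order came from Release 6 of the reference list, with no coordinates converted. Alternatives changed the background correction, the centring, the spots left out, the bin width, the window around the site, the mean p and the replicates.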

Additional observations from a re-analysis of the deposited data

How the results depend on the processing

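Every site mean stayed above 0 under each alternative run, and the 209 enriched probes, the 48 enriched bins and the 11 regions stayed within 1.5 times their count, except that bins of 1000 bp, which are fewer, gave 29 enriched of 40. The count of 8 depleted probes became 13 with normexp background correction, 2 in the deposited table and 3 without dim probes, an alternative added after seeing the data, and normexp gave 1 depleted bin, at 7783000 in the low stretch, where there had been none. The regions covered 35.2% of the window at a mean p of 0.01 and 9.70% at 0.001, in place of 61.3%. The Hsp70 interval, 0.76 with a spread of 0.06, was 0.67 with normexp, 0.85 in the deposited table and 0.89 centred on the mode. The whole window, 0.63, was 0.52 with normexp and 0.76 centred on the mode. The scs interval, 0.88, was 0.53 with normexp, which turned its difference from the Hsp70 interval to −0.14, where it had been 0.12. Without 1 replicate that difference ranged between −0.43 and 0.67, and that of the aur and CG3281 interval from the CG12213 and GC1 interval between −0.050 and 0.20. The other 4 site differences kept their sign. With normexp, however, the excess of the aur and CG3281 interval over the Hsp70 interval fell from 0.51 to 0.26 (0.08 and 0.43 in replicates 1 and 2). Its excess over scs stayed at 0.40. Normexp gave 1.07 at the aur start, 0.93 over the aur and CG3281 interval and 0.85 over the CG12213 and GC1 interval. Centring on the mode raises every value by construction. The causes of the other changes were not tested. Without 1 replicate, the aur start ranged between 1.05 and 1.75, the aur and CG3281 interval between 1.00 and 1.55, scs between 0.37 and 1.39, the Hsp70 interval between 0.72 and 0.80, the whole window between 0.56 and 0.71, and the regions numbered 13 in either replicate. No paired analysis was possible because there is 1 group, so no groups share replicate numbers (each ratio sets the immunoprecipitate against the input of its own replicate). Dim probes limit the low stretch. Without them scs was 0.89 and the aur and CG3281 interval 1.25, but the scs bin at 7774500 was no longer enriched.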
